A study of Rattus norvegicus with 110 samples.

Results

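Carbon tetrachloride (CCl4) is a liver toxicant that cytochrome P450 of the hepatocytes around the central vein turns into a radical, and repeated doses lead to cell death, inflammation and the deposition of scar matrix. In an injured liver a transcript that is not detected in healthy tissue can appear because resident cells switch it on or because cells that carry it enter or expand. In RNA from whole tissue, more cells of a type and more RNA per cell cannot be told apart. The genes described here had few or no counts in the liver of vehicle rats and were expressed at the high dose of CCl4. They were chosen by their counts: at most 10 in each of the 27 vehicle libraries and a mean of at least 1 CPM (the count divided by the library total, on the standard CPM scale) over the 28 high-dose libraries. Of the 31998 gene identifiers, 16068 met the first condition, 13202 met the second, and 100 met both. The rule would have allowed 200 genes, so none was left out by rank. The difference between vehicle and high dose is the choice itself and is given without a test.

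The 100 genes are numbered in the order of their high-dose mean CPM, from member 1 to member 100. Their identifiers are those of Ensembl, and the sources used here pair 1489 identifiers (4.65%) with a symbol. Only 1 member is among these, Ncs1 (ENSRNOG00000008761.6, member 89), which encodes neuronal calcium sensor 1, a calcium-binding protein known from the control of neurotransmitter release. No name was inferred for the other members. With 99 members unnamed, the lists of gene families and of cell type markers could place only Ncs1, which none of them holds, so the count of 0 members in each list is void. This includes lists with paired identifiers, such as the 24 solute carriers, as well as those with none, such as the collagens.

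Liver RNA was sequenced from 83 male Sprague Dawley rats of the F2 generation in 12 groups of 7, with 6 in group 17. Groups 11, 14, 17 and 20 received olive oil (vehicle), groups 12, 15, 18 and 21 received the low dose of 8% CCl4 in this oil, and the high dose of 50% CCl4 went to groups 13, 16, 19 and 22, all by gavage at 0.5 mL/kg and 3 times per week for 6 weeks, with tissue taken after 39 days. Neither the F0 grandsire nor the F1 sire of cohort A (groups 11, 12 and 13) had been given CCl4. In cohort B (groups 14, 15 and 16) the F1 sire had been, in cohort C (groups 17, 18 and 19) the F0 grandsire, and in cohort D (groups 20, 21 and 22) both of them. Treated ancestors had received the 50% solution for 6 weeks and had 2 weeks of recovery before mating. All animals were of an outbred stock, males of different dose groups of a cohort often had the same sire, each library was 1 animal, and kidney RNA was sequenced only from the 27 vehicle rats. Liver libraries held 31638559 to 51343589 counts and kidney libraries 21961746 to 35055218.

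Few markers could be used to check the tissue. Tat, a tyrosine-degrading enzyme of hepatocytes, had a median of 883 CPM at the high dose and of 0.223 CPM in kidney. Glul, which the list of hepatocyte markers also holds, was higher in kidney (2469 CPM) than in high-dose liver (349 CPM) and so does not mark liver here. Of the macrophage markers, Cd5l and Cd163 had medians of 126 and 59.6 CPM at the high dose and of 0 and 0.593 CPM in kidney, whereas Adgre1 (33.1 and 9.21 CPM) and C1qb (90.5 and 10.6 CPM) were present in both tissues. Foxi1, a transcription factor of the intercalated cells of kidney that was picked after its values were seen, was at most 0.03 CPM in a high-dose liver library and had a median of 41.6 CPM in kidney.

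The level of each member in each library is shown in the heat map of the 100 genes. At the high dose the median member had a mean of 1.81 CPM, and the highest, member 1, had 26.7 CPM. At the vehicle side 0 members were at 0 in all 27 libraries, 19 were at 0 in most of them, and 10 had no vehicle library above 3 counts. A count of 0 allows up to 3 counts, which for a vehicle library of mean size is 0.077 CPM and covers counting error only. The choice lay close to its thresholds for many members. The 5 members with the lowest high-dose mean had at most 1.03 CPM, and the 5 genes next below them had 0.981 to 0.994 CPM. A vehicle library with exactly 10 counts was found for 20 members, and 10 genes with 1.06 to 2.44 CPM failed by 1 count in 1 vehicle library.

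**Figure D1:**
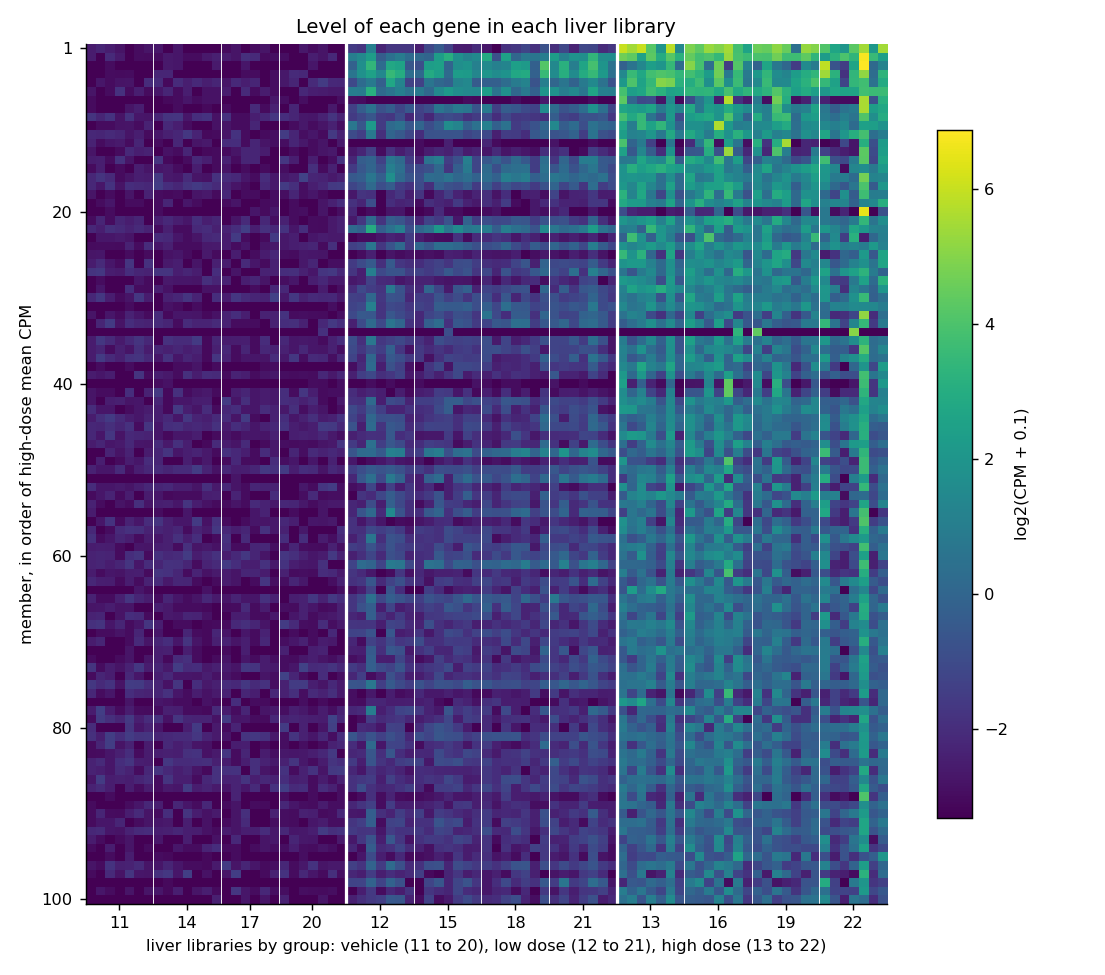
Level of the 100 genes (rows, in order of high-dose mean CPM) in the 83 liver libraries (columns, by group), as log2(CPM + 0.1). The high-dose columns are unequal: 1 library of group 22 is bright in most rows, and rows such as member 7, member 20 and member 34 are bright in a few libraries only.

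Summed over the 100 genes, the level was 4.38 to 7.74 CPM in the vehicle libraries, 19.5 to 113 CPM at the low dose and 84.3 to 1207 CPM at the high dose. The sums of vehicle and low dose did not overlap, whereas the highest low-dose sum lay above the lowest high-dose sum. At the high dose the median sum was 257 CPM for group 13, 286 for group 16, 214 for group 19 and 228 for group 22 (172 without its highest library), and each median lay inside the range of every other group. At the low dose the medians were 34, 46.1, 47.7 and 50.2 CPM in groups 12, 15, 18 and 21, again with overlap of all 4 groups. Markers of other cells moved with the dose too. Cd4, a co-receptor of helper T cells, had 14.5 to 29.4 CPM in vehicle and 37.2 to 111 CPM in high-dose livers, without overlap. The 4 macrophage markers overlapped between the doses, with medians in vehicle and high-dose livers of 17.2 and 33.1 CPM for Adgre1, 41.5 and 59.6 CPM for Cd163, 46.1 and 90.5 CPM for C1qb, and 79.7 and 126 CPM for Cd5l. The endothelial receptor gene Kdr had 78.2 and 54.8 CPM. Their part in the members' levels was not tested.

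**Figure D2:**
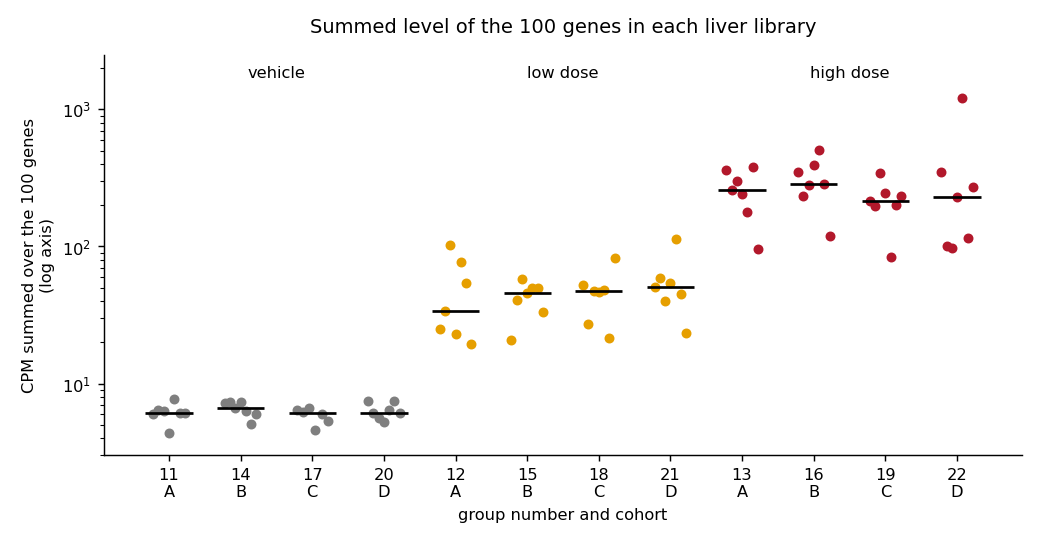
CPM summed over the 100 genes (log axis) in each liver library, by group number and cohort, with a line at the group median. The 7 libraries of group 22 run from 97.1 to 1207 CPM, and the other 3 high-dose groups from 84.3 to 507 CPM.

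A single library stood apart at the high dose. Replicate 5 of group 22 had a sum of 1207 CPM, 4.97 times the median of the other 27 high-dose libraries, of which the highest was replicate 5 of group 16 with 507 CPM. It was the highest library for 60 members and among the 3 highest for 78, but below the middle of the 28 libraries for 8. Replicate 5 of group 16 was the highest for another 10. The library of group 22 had a total of 36170415 counts, inside the range of the others, whereas it had the most genes with over 10 counts (14137 to 15505 in the others) and the smallest share of counts in its 10 most abundant genes (9.94% against 13.8% to 26.2%). Of the hepatocyte markers, Tat was at its lowest high-dose level there (328 CPM, median 883) while Glul lay above its median (511 CPM, median 349). Of the 4 macrophage markers, the complement gene C1qb was at its highest (185 CPM, median 90.5), whereas Adgre1 (32.8 CPM, median 33.1), Cd163 (54.9 CPM, median 59.6) and Cd5l (60.02 CPM, median 126) were below their medians. The kidney podocyte gene Nphs1 was at its highest (3.82 CPM, median 1.62), and so were the mast cell marker Kit (10.6 CPM, median 5.42), the monocyte chemokine Ccl2 (90.0 CPM, median 3.27) and Gatm, a kidney-rich enzyme of creatine synthesis (29.6 CPM, median 15.8), the last 2 picked after their values were seen. The kidney gene Foxi1, in contrast, was at 0 CPM there (median 0). Cd4 was above its median (103 CPM, median 64.5). The part of these differences in the members' levels was not tested. Without this library 85 of the 100 genes would still have met the rule, and among the 15 that would not were Ncs1, with 0.999 CPM over the other 27 libraries, and member 20. The calls for the ancestral treatments at the high dose and over all doses are therefore given with and without it. Other values are given without it only in part.

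The members differed in how widely they were expressed among the high-dose animals. More than 10 counts were found in all 28 libraries for 37 members, in 21 to 27 libraries for 46, in 14 to 20 for 14 and in fewer than 14 for 3. Although the rule asked for a mean of 1 CPM, the median over the 28 libraries was below 1 CPM for 45 members. The coefficient of variation (the SD divided by the mean) ranged from 0.399 to 4.94 with a median of 0.958.

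Member 1 (ENSRNOG00000009031.5) was expressed in each high-dose animal, with a lowest value of 1.23, a median of 23.3 and a highest of 64.6 CPM. Its cohort A values were 2.51, 3.74, 18.2, 44.1, 56.5, 63.9 and 64.6 CPM, so that animals of one group differed by more than a factor of 10. The group medians were 44.1, 28.9, 24.1 and 16.4 CPM in cohorts A, B, C and D, and the 4 groups overlapped. In vehicle libraries it had at most 4 counts, and in the 28 low-dose libraries a median of 0.20 CPM with a highest value of 2.02 CPM. Member 1 thus had a high-dose mean of 26.7 CPM against a low-dose mean of 0.28 CPM, and its level in the library of group 22 that stood apart was the 7th of 28.

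Member 6 varied least, from 4.01 to 17.8 CPM with a median of 8.17 CPM, and its low-dose values ran from 0.77 to 8.63 CPM. Member 31 was next, with 1.08 to 4.29 CPM at the high dose. Member 2 had a median of 14.2 CPM and a lowest value of 4.76 CPM, and its highest value of 110 CPM was in replicate 5 of group 22, where the other 6 libraries had 4.76 to 15.8 CPM. These genes were on in all 28 high-dose animals, with a spread that did not leave a library near the vehicle level.

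Other members owed their place to a few animals. Member 20 had 91.8 CPM in replicate 5 of group 22, which was 93.6% of its total over the 28 libraries, and at most 1.59 CPM in any other. Its median was 0.09 CPM, and without that library its mean was 0.23 CPM. Member 34 was at 0 in 25 high-dose libraries and had more than 10 counts in the other 3, with 9.72 CPM in group 16, 20.5 CPM in group 19 and 33.1 CPM in group 22. In vehicle rats it was at 0 in 26 of 27 libraries, and 1 of the 28 low-dose libraries had more than 10 counts. At least 50% of the total lay in a single library for 4 members, which were members 20, 32 and 88 in replicate 5 of group 22 and member 34 in replicate 4 of that group.

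Of the 10 members that were highest in replicate 5 of group 16, members 7, 13, 40, 41, 49, 62, 76 and 79 had 23.9% to 35.7% of their total there and a median below 1 CPM. Member 7 had the highest CPM of these, with 53.6 CPM in that library, 46.9 CPM in replicate 5 of group 22, 25.5 CPM in group 19 and 19.5 CPM in group 13 as the highest value of each group, and a median of 0.41 CPM. Its group medians were 0.43, 0.38, 1.07 and 0.09 CPM. No low-dose or vehicle library had more than 2 counts of it. Each high-dose group thus had 1 animal with a value well above the rest, in a gene that stayed under the limit of 3 counts in all low-dose and vehicle livers.

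**Figure D3:**
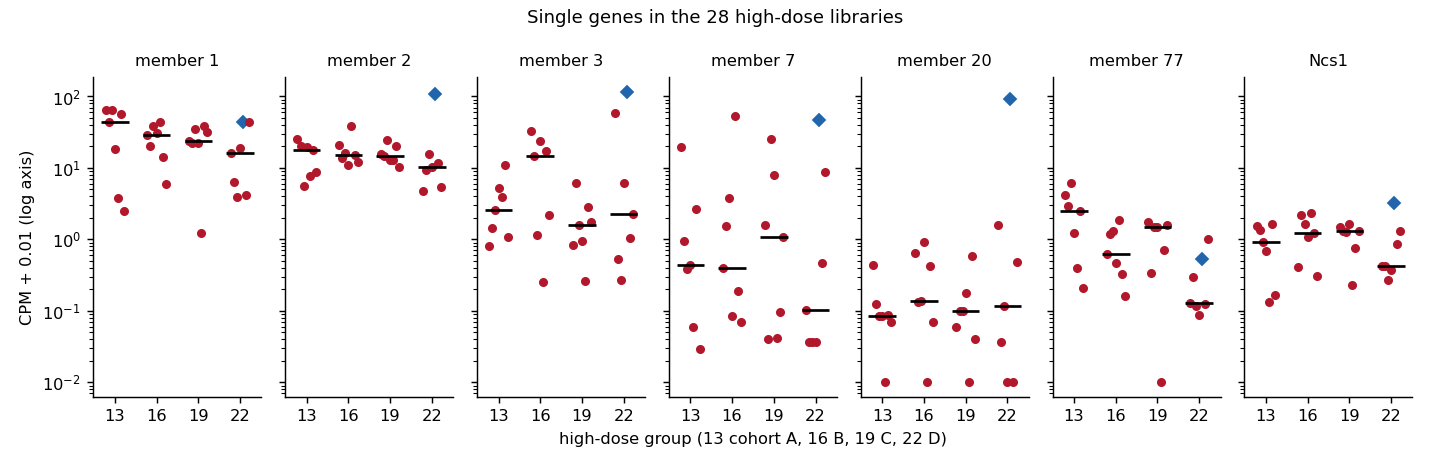
CPM + 0.01 (log axis) of 7 members in the 28 high-dose libraries by group, with a line at the group median and replicate 5 of group 22 as a blue diamond. Member 1 and member 2 are on in every animal, whereas member 7 and member 20 reach 53.6 and 91.8 CPM in single animals and have medians of 0.41 and 0.09 CPM.

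Over the 28 high-dose libraries the members tended to be high and low together. The median Spearman correlation over the 4950 pairs of members was 0.35, and 81.9% of the pairs were positive. The correlation of a member with the sum of the other 99 ranged from -0.17 to 0.92 with a median of 0.60, and it was negative for 3 members. Without replicate 5 of group 22 the median over pairs was 0.32. These values describe the libraries, which each pair shares together with their depth, and carry no test.

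The low dose had no part in the choice, although the high-dose mean it is set against did. A low-dose mean of at least 1 CPM was found for 9 members, and the median member had 0.27 CPM at the low dose against 1.81 CPM at the high dose. The ratio of the low-dose to the high-dose mean had a median of 0.167 and ran from 0.0012 to 0.734. It was below 0.1 for 25 members, between 0.1 and 0.5 for 72 and at least 0.5 for 3, and the cohort medians of the ratio were 0.184 (A), 0.125 (B), 0.225 (C) and 0.150 (D). With TMM scaling, which corrects for the composition of the libraries, the median ratio was 0.228.

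The 5 members with the highest ratio were members 48, 61, 22, 4 and 75, from 0.734 to 0.438. Member 48 had a median of 1.05 CPM at the low dose and of 0.78 CPM at the high dose, although its high-dose mean of 1.82 CPM was above the low-dose mean of 1.33 CPM. Member 4 had 0.80 to 11.4 CPM at the low dose, 0.18 to 42.1 CPM at the high dose and more than 10 counts in each of the 28 low-dose libraries. The 5 members with the lowest ratio were members 7, 12, 40, 34 and 20, from 0.0012 to 0.0088, and each of them had a high-dose median below 0.42 CPM. Member 1 followed with 0.011 and differed from these in being on in every high-dose animal. For 12 members no low-dose library had more than 10 counts, for 45 at least 14 libraries did, and for 7 all 28 did.

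**Figure D4:**
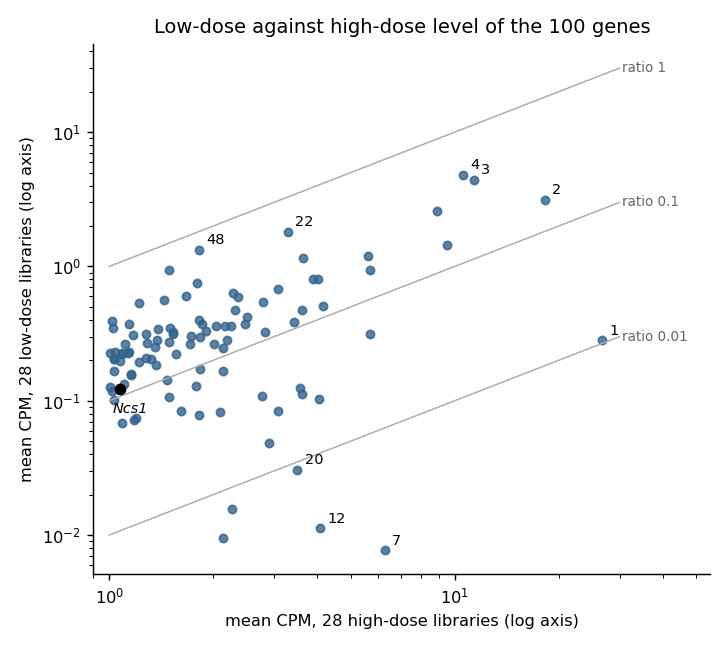
Mean CPM of the 100 genes over the 28 low-dose libraries against the mean over the 28 high-dose libraries (log axes), with lines at ratios of 1, 0.1 and 0.01. All 100 points lie below the line of equal level, with member 1 near the line of 0.01 and member 48 closest to that of 1.

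In the edgeR fit of the 12 groups, 80 members were higher at the low dose than in vehicle rats (adjusted p under 0.1, log2 fold change beyond 1) and 0 were lower, while 6.26% of all genes tested were called in either direction. The vehicle side of this contrast had chosen the members, so nothing is read from the number. In Ncs1 the low-dose values ran from 0.03 to 0.28 CPM and the vehicle values reached 0.12 CPM, against 0.12 to 3.18 CPM at the high dose.

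Whether levels differed with a treated ancestor was tested with the F0 and F1 treatment, which the rule did not name. The high-dose values that enter these tests had also entered the choice, and they did so unevenly. Over the high-dose rats with an untreated F1 sire 31 members had a mean under 1 CPM, against 2 members over those with a treated F1 sire, and for the F0 treatment the numbers were 7 and 10. Members that passed the rule through the treated groups had to be higher there, so the calls, medians and signs at the high dose and over all doses are given as a description, and the shares of all genes beside them are no measure of the members. Over all doses, with the F2 dose in the model, 3 of the 100 members were called for the F0 treatment (8.93% of all genes were). Member 10 was lower in descendants of treated F0 males (log2 fold change -0.67 ± 0.25 SE, adjusted p = 0.097) and members 20 and 34 were higher, the first through 1 library. Member 34 was higher through 1 library each of groups 19 (20.5 CPM) and 22 (33.1 CPM). Its 9.72 CPM in group 16 came from a rat with an untreated F0 grandsire. Over the high-dose rats with an untreated F0 grandsire members 20 and 34 had means of 0.221 and 0.694 CPM, so both met the rule only through the treated groups. The number called was 0 with the necropsy date as a block, 0 with the F0 or the F1 sire as a correlated block and 0 with DESeq2. The F1 treatment was called for 1 member, member 20, against 0.200% of all genes, and for 0 with the date or with either sire as a block (0.0316% to 0.205% of all genes). Without replicate 5 of group 22 the F0 log2 fold change of member 20 was 0.42 instead of 2.59 (adjusted p = 0.60) and that for F1 was 0.69 instead of 2.73 (adjusted p = 0.59). In the same fit 2 members were called for F0, against 10.9% of all genes. These were member 34 (2.74, adjusted p = 0.057) and member 56 (-0.88, adjusted p = 0.079), and the adjusted p of member 10 was 0.101.

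At the high dose, 0 members were called for the F0 treatment with edgeR, where 0.121% of all genes were, and 0 with DESeq2 (0.453%). An unadjusted p under 0.05 (edgeR) was found for 5 members, against 8.22% of all genes. The median log2 fold change of the members was -0.14, against 0.02 for all genes tested. Without replicate 5 of group 22, 2 members were lower with a treated F0 grandsire, members 46 and 56, while 344 of all genes (1.82%) were called. In that fit 16 members had an unadjusted p under 0.05 (edgeR), against 14.8% of all genes. Of the 100 members, 9 had a positive log2 fold change there, and the median was -0.35. In member 56 the 14 values of cohorts A and B ran from 0 to 7.93 CPM, those of cohort C from 0.22 to 1.20 CPM and those of cohort D from 0.08 to 0.50 CPM apart from 16.4 CPM in that library. The groups overlapped, and the log2 fold change without it was -1.70 ± 0.46 SE (adjusted p = 0.060).

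For the F1 treatment at the high dose, 11 members were called, 10 higher and 1 lower, where 1.59% of all genes were called, of which 275 were higher and 28 lower. Of the 10 called higher, 7 had a mean under 1 CPM over the rats with an untreated F1 sire (members 20, 48, 55, 61, 63, 67 and 78), so their direction follows from the rule. Member 77, the one called lower, had 0.578 CPM with a treated F1 sire and 1.78 CPM with an untreated one, so this holds for it as well. The median log2 fold change of the members was 0.41 and 76 of them were positive. Without replicate 5 of group 22 the count was 2, the median was 0.03, 53 members were positive and 97 of all genes (0.512%) were called. Without replicate 5 of group 16 the count was 17 (1.97% of all genes), but the median was 0.14 and 62 members were positive. The count also depended on other animals, being 3 without replicate 1 of group 16, 4 without replicate 6 of group 16 or replicate 1 of group 22, and 5 without replicate 2, 5 or 7 of group 13. In these fits the median stayed between 0.37 and 0.41, and 0.880% to 1.17% of all genes were called. In an edgeR fit of the 28 high-dose libraries alone 0 members and 0 of all 18572 genes were called. There 29 members had an unadjusted p under 0.05, against 6.45% of all genes, but the rule had used these values. DESeq2 on all liver libraries called 17 members (1.90% of all genes). A block for the necropsy date gave a count of 8 (1.43% of all genes), a median of 0.13 and 64 positive members. With the F0 sire as a correlated block these were 6 (1.18%), 0.11 and 65, and with the F1 sire 5 (1.1%), 0.11 and 65. Within the dates, the median sums of rats with an untreated and a treated F1 sire were 236 and 291 CPM on date 1, 274 and 254 on date 2, and 217 and 196 on date 4, with 4 animals each. On date 3, with 2 animals each, they were 132 and 857 CPM, and the 2 highest sums as well as the lowest, 84.3 CPM in replicate 5 of group 19, were found on that date.

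Members 3 and 77 were called with and without that library, but neither was with the F0 or the F1 sire as a correlated block or in the fit of the 28 high-dose libraries alone. Member 3 (ENSRNOG00000009528.4) had 0.80, 1.06, 1.43, 2.56, 3.87, 5.14 and 11.1 CPM in group 13 and 0.25 to 6.22 CPM in group 19, the groups with an untreated F1 sire. In group 16 its values were 0.24, 1.15, 2.17, 14.5, 17.4, 24.1 and 32.4 CPM, and in group 22 they were 0.26, 0.52, 1.03, 2.28, 6.13, 58.8 and 117 CPM. The groups with a treated F1 sire held the 6 highest values and also some of the lowest, so the groups overlapped. The log2 fold change was 2.50 ± 0.53 SE (adjusted p = 0.0089) and 2.06 without that library (adjusted p = 0.076). At the low dose the group means of member 3 were 4.06, 2.97, 5.05 and 5.56 CPM in groups 12, 15, 18 and 21.

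Member 77 (ENSRNOG00000002976.7) was lower in rats with a treated F1 sire. It had 0.20, 0.39, 1.21, 2.52, 2.91, 4.21 and 6.23 CPM in group 13 and 0 to 1.75 CPM in group 19, against 0.15 to 1.87 CPM in group 16 and 0.078 to 0.997 CPM with a median of 0.117 CPM in group 22. The values overlapped, with the lowest median in group 22 and the lowest value, 0, in group 19. The log2 fold change was -1.69 ± 0.42 SE (adjusted p = 0.024) and -1.70 without replicate 5 of group 22 (adjusted p = 0.076). In the 28 low-dose libraries member 77 was at most 0.20 CPM.

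The other 9 called members were 20, 27, 37, 48, 55, 61, 63, 67 and 78, with log2 fold changes of 1.05 to 3.57. All 9 lost the call without that library, but 7 of them kept a log2 fold change of 0.946 to 1.40, while that of member 20 went from 3.57 to 1.28 and that of member 61 from 1.37 to 0.69. In Ncs1 the means at the high dose were 0.908 ± 0.621 CPM in group 13, 1.3 ± 0.795 in group 16, 1.13 ± 0.486 in group 19 and 0.969 ± 1.04 in group 22 (SD, n = 7), differences smaller than the spread among animals, and its F1 log2 fold change was 0.02 ± 0.33 SE (adjusted p = 1.0). At the low dose 0 members were called for the F0 treatment with edgeR (0.363% of all genes) and 0 with DESeq2 (1.13%). For the F1 treatment 0 were called with edgeR (0% of all genes) and 0 with DESeq2 (0.0158%). With edgeR, an unadjusted p under 0.05 was found for 1 member for F0 (9.62% of all genes) and 2 for F1 (2.43%).

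The 4 necropsy dates gave no call. Among the 28 high-dose libraries, with the group in the model, 0 members differed between dates with edgeR, against 0.00538% of the 18572 genes tested. The DESeq2 likelihood ratio test called 0 members (0.167% of all genes). An unadjusted p under 0.05 (edgeR) was found for 11 members, against 4.47% of all genes. Without replicate 5 of group 22 it was found for 2 members, against 3.23%. The median sums on the 4 dates were 246, 263, 343 and 217 CPM, and 179 CPM on date 3 without replicate 5 of group 22, for 8, 8, 4 and 8 libraries.

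Kidney, sequenced from vehicle rats alone, had no part in the choice. A mean of at least 1 CPM was found for 43 of the 100 members, which is close to the 43.1% of all identifiers that reached this level, whereas 4.09% of the 16068 identifiers with at most 10 counts in each vehicle liver did, or 7.02% of the 9025 of these that had a count in any liver library. A mean of at least 10 CPM was found for 13 members (28.8% of all identifiers), and 34 members were higher in vehicle kidney than in high-dose liver. At the other end 15 members had less than 0.1 CPM in kidney. The median member had 0.703 CPM.

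The 7 highest members in kidney held 72.3% of the sum. Member 25 had 190 to 257 CPM in the 27 kidney libraries, with a mean of 219 ± 17.4 CPM (SD, n = 27), against a mean of 2.89 CPM in high-dose liver. Member 85 had 146 ± 9.14 CPM, member 97 had 112 ± 15.7 CPM, member 60 had 77.1 ± 9.08 CPM and member 19 had 57.4 ± 7.74 CPM in kidney. Of these, member 19 had the highest CPM in high-dose liver (3.55 CPM, 0.834 to 8.41). Ncs1 had 30.9 to 54.8 CPM in kidney with a mean of 39.1 ± 5.27 CPM, which was 36.3 times its mean in high-dose liver. Of the kidney genes that are no members, Nphs1 had 0.923 to 3.82 CPM and Gatm 11.9 to 29.6 CPM in the high-dose livers, so both were detected in each of them, whereas Foxi1 was at most 0.03 CPM. Nphs1 and Gatm were also detected in each vehicle liver, with 0.622 to 2.63 CPM and 7.57 to 16.6 CPM.

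The first 4 members by high-dose CPM were each low in kidney. Member 1 had 0 to 0.06 CPM there, member 2 had 0 to 0.52 CPM, member 3 had 0 to 0.12 CPM and member 4 had 0 to 0.05 CPM. Member 20 was at 0 in all 27 kidney libraries, which allows up to 3 counts in each. Of the first 20 members, members 9, 13, 14, 16, 17, 18 and 19 had at least 1 CPM in kidney.

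**Figure D5:**
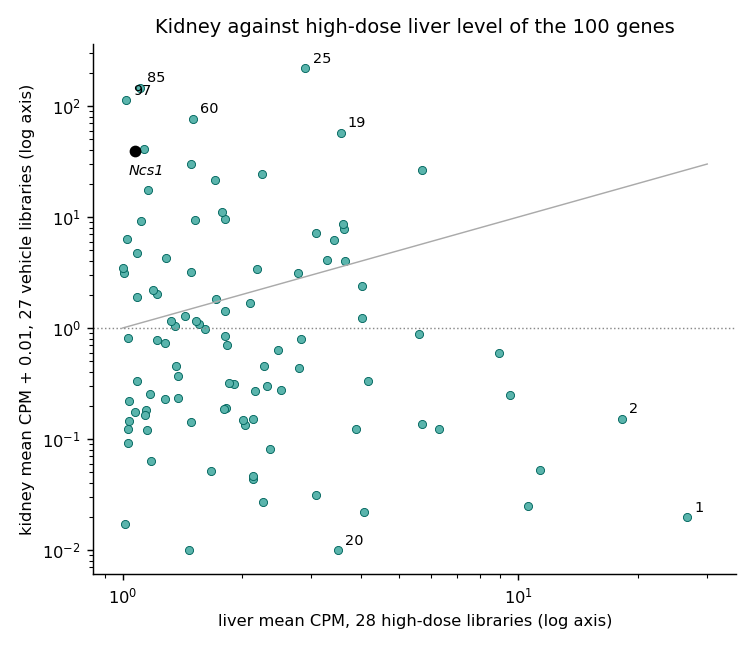
Mean CPM + 0.01 of the 100 genes in kidney of 27 vehicle rats against the mean in high-dose liver (log axes), with a line of equal level and a dotted line at 1 CPM. Members 25, 85, 97 and 60 lie between 77.1 and 219 CPM in kidney, and member 1 and member 20 lie at its lower edge.

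In kidney 90 members had enough counts to be tested, and 0 were called for the F0 treatment of the ancestors (edgeR) against 0.0109% of 18374 genes. DESeq2 called 0 members (0.419% of all genes). For the F1 treatment 0 were called with edgeR (0% of all genes) and 0 with DESeq2 (0%). With edgeR, 4 of the members had an unadjusted p under 0.05 for F0 (8.70% of all genes) and 11 for F1 (6.67%). Ncs1 had the lowest unadjusted p of the members for F0, with a log2 fold change of 0.20 ± 0.06 SE that did not pass the adjustment (adjusted p = 0.31).

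Levels of different genes can be compared only per transcript length. On that scale (TPM, the count per base of the deposited transcript length, scaled to a fixed total) the median member had 1.23 TPM at the high dose, and member 1 was the 10th of the 100 with 8.84 TPM. Member 12 had 534 TPM at 4.08 CPM because its deposited effective length was 10 bases, so its TPM is not usable. Member 3 (11.03 TPM) and member 6 (10.8 TPM) were above member 1. The median effective length of the members was 1803 bases, against 1925 bases for all genes with a high-dose mean of at least 1 CPM.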

How the data were processed

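Stranded mRNA libraries of liver (83) and kidney (27) were sequenced as read pairs. The authors quantified transcripts with Salmon 0.14.0 on an index of Ensembl rat sequences, and tximport in R 3.5.0 turned these into gene values. The deposited values are unnormalized estimated counts, given as whole numbers, and average effective transcript lengths in bases. The genome build was not needed and no sequence was used. Sample groups came from the labels, with 0 unmapped columns and 0 identical libraries. Many males of different dose groups have the same sire, so the animals are not fully independent.

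CPM was computed from the column totals. A gene was tested where the counts of any group summed to more than 10, in R 4.3.3 with edgeR 4.0.16 (TMM, quasi-likelihood F test, Benjamini-Hochberg adjustment over all genes tested, called at an adjusted p under 0.1). F0 and F1 effects over all doses came from a model with F0, F1 and F2 terms on 83 libraries, those at a dose from 12 group means, those in kidney from F0 and F1 terms on 27 libraries. The SE of a log2 fold change was taken as its size divided by the square root of F. Alternatives were DESeq2 1.42.0, limma 3.58.1 (voom with the F0 sire as a correlated block), DESeq2 size factors, other filters, a threshold of 0.05, the date as a block and the fit of 1 dose alone. Leaving out high-dose libraries, the F1 sire as a fixed or correlated block, the likelihood ratio test and the difference of ancestral effects between doses were added after seeing the data. The fit was tested on simulated data.

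The members and lists were chosen with earlier results of these data known. Genes named were the 20 highest members, up to 5 per contrast past the threshold with the largest change, the 5 highest and lowest by low-to-high ratio and by variation, the 5 highest in kidney, and those at the edge of the rule. Members without a symbol are given by number and 3 of them by identifier. Other members and Foxi1, Gatm and Ccl2 were picked after their values were seen. Symbols came from a supplementary list of the study alone. The RefSeq tables carried no Ensembl identifiers, so promoters could not be matched and no sequence is printed.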

Additional observations from a re-analysis of the deposited data

Results flagged for a closer look

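Within single groups of 7 animals, 48 sets of values were examined for a value far from the rest by Dixon's ratio, which chance passes in about 1 of 20 groups, and 16 passed. The rule had used the high-dose values and members 7, 20 and Ncs1 were picked for theirs, so the number that passed is not to be read against that rate. Replicate 5 of group 22 gave 5 of them: a sum of 1207 CPM over the 100 genes (97.1 to 350 in the other 6 animals), 110 CPM for member 2, 46.9 CPM for member 7, 91.8 CPM for member 20 and 3.18 CPM for Ncs1 (0.26 to 1.28 in the others). Replicate 5 of group 16 gave 39.0 CPM for member 2 and 53.6 CPM for member 7. At the low dose, replicate 5 of group 21 had a sum of 113 CPM (23.5 to 58.4 in the others). These 3 libraries were taken on necropsy date 3, which held 4 low-dose and 4 high-dose livers.

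Fewer members with over 10 counts than in the rest of their group were found in replicate 1 of group 15 (25 members, 45 to 54 in the others), replicate 7 of group 16 (71, 93 to 97) and replicate 5 of group 19 (60, 84 to 96), the last of which was also taken on date 3 and had the lowest high-dose sum, 84.3 CPM. Single animals were high for member 3 in group 13 (11.1 CPM in replicate 6), for member 7 in group 13 (19.5 CPM in replicate 1) and group 19 (25.5 CPM in replicate 3), and for member 20 in group 13 (0.43 CPM in replicate 1) and group 19 (0.57 CPM in replicate 6).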

How the results depend on the processing

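Over all alternatives 106 summary values stayed close to those reported (counts within 1.5 times) and 49 did not. The latter follow, and the cause was not tested. A vehicle limit of 5 counts in place of 10 left 26 genes, of which 2 had a low-dose mean of at least 1 CPM, and TMM scaling gave a median low-to-high ratio of 0.228. For the F0 effect over all doses the number of members called was 1 at an adjusted p under 0.05 and with no filter, and 0 with the date as a block, with DESeq2 and with the F0 or the F1 sire as a correlated block. For the F1 effect over all doses it was 0 at 0.05, with a mean count filter, with the date as a block and with either sire as a block (0.0316% to 0.205% of all genes). For the F0 effect at the high dose it was 1 with DESeq2 size factors (0.184% of all genes) and with a mean count filter (0.285%). For the F1 effect at the high dose it was 4 at 0.05 (0.958% of all genes), 17 with DESeq2 (1.90%), 6 with the F0 sire (1.18%) and 5 with the F1 sire (1.1%) as a block, and 0 in the 28 high-dose libraries alone (0%). Leaving out single high-dose libraries gave 0 to 2 members for F0 (0.0790% to 1.82% of all genes) and 2 to 20 for F1 (0.512% to 2.24%) at the high dose. Over all doses, leaving out replicate 5 of group 22 gave 2 for F0 (10.9% of all genes) and 0 for F1 (0.169%). The count for F1 fell below 8 without replicate 5 of group 22 (2), without replicates 1 (3) and 6 (4) of group 16, replicate 1 of group 22 (4), replicates 2, 5 and 7 (5 each) and 3 (7) of group 13 and replicate 5 of group 19 (6), and it rose without replicate 5 (17) or 3 (19) of group 16, replicate 6 of group 13 (18) and replicates 2, 6 (19 each) and 7 (20) of group 22. Member 3 was called under 33 of 36 alternatives (log2 fold change 1.41 to 2.80, adjusted p 0.0026 to 0.48) and member 77, whose direction follows from the rule, under 33 of 36 (-2.05 to -1.39, adjusted p 0.0040 to 0.29). Most of these alternatives left out 1 high-dose library of the same fit, so the tally is no independent support. Neither member was called with the F0 or the F1 sire as a correlated block or in the 28 high-dose libraries alone, and the rule had used the values tested. The difference of the F0 or F1 effects between high and low dose was called for 0 members and 0 of all genes (edgeR, lowest adjusted p 1.0 and 0.42 among the members). At an unadjusted p under 0.05 (edgeR) there were 3 and 20 members, for which no share of all genes was computed. The Wald test was not run for the 4 dates. Replicate numbers follow the accession order, but the labels name sires, and many litters were split over doses. In a paired fit with the F1 sire as a replicate block, added after seeing the data, 84 members differed between low dose and vehicle (83 higher, 1 lower) in place of 80. There 6.14% of all genes were called, and nothing is read from this number either. For the ancestral effects the F1 sire, which belongs to 1 cohort, was used as a correlated block only. Genes below about 3 counts in a library could not be told from silent ones.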
